A study of Homo sapiens with 13 samples.

Results

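The broadest H3K4me3 domains of H1 human embryonic stem cells were the 500 widest peaks of the wild-type (WT) H3K4me3 list. They were chosen by the width of the WT peak (end minus start, ties broken by chromosome and start), out of 28660 peaks. Data came from H1 (WA01), an established embryonic stem cell line, and from clone 1-10, in which both copies of ZNF263 were deleted with Cas9 (KO). H3K4me3, H3K27ac and H3K27me3 were mapped in WT and in KO cells by chromatin immunoprecipitation followed by sequencing (ChIP-seq), with 1 library per mark and genotype. A further library mapped ZNF263 with a FLAG antibody in KO cells that ectopically expressed FLAG-tagged ZNF263. The labels of the FLAG ChIP, and of the ChIP with an antibody against the endogenous protein in WT cells (2 replicates), point to the same FLAG peak list, and no separate endogenous peaks were used here. Whether reads of the endogenous ChIP entered this list is not known, and it was treated as the list of the FLAG library.

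The KO cells are a single clone, and the level of the tagged protein relative to that of ZNF263 in WT cells is not known from the sources used here. Each mark has a single library in each genotype, so WT and KO were compared without a test, and their differences have no replicate check. The 7 lists hold 10375 to 28660 peaks each, without read counts, so depth is unknown. Intervals are at 95% and describe the counting of regions only (Wilson for shares, Newcombe for differences of shares, order statistics for medians). Coordinates are hg19, counted from 1, and domains are named by position and width rank because no hg19 gene annotation was used here.

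H3K4me3 is laid down by COMPASS-type methyltransferases (SET1 and MLL complexes) around transcription start sites, in particular at CpG islands. At most promoters it forms a narrow peak, and at a small set of loci it spreads over many kilobases. Broad domains are known for lying at genes that define a cell's identity and, in embryonic stem cells, at developmental regulator genes that also carry the Polycomb mark H3K27me3, a state called bivalent. H3K27ac marks active promoters and enhancers, and it cannot sit on the same lysine residue as H3K27me3. ZNF263 is a DNA-binding protein with an array of C2H2 zinc fingers.

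The domains spanned 7676 to 24527 bp, with quartiles of 8209 and 10778 bp and a median of 9134.5 bp, against a median of 2499 bp over all WT H3K4me3 peaks in the list. They made up 1.74% of the peaks and 6.03% of the bases under WT H3K4me3, or 4.91 Mb. Width at the threshold was continuous. The domains ranked 499 and 500 measured 7683 and 7676 bp, and the 2 peaks just outside measured 7675 and 7672 bp. These widths chose the domains and are given as a description. The 500 peaks that follow in width (6464 to 7675 bp, median 7019.5 bp), called the next 500, served as the nearest comparison, beside all 28160 peaks outside the 500 domains.

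The authors' peak score reached its ceiling of 3100 or more in 489 of the 500 domains, so the score does not rank them. The remaining 11 had scores from 1255 upwards. The lowest belonged to the domain ranked 9, chr20:45975347-45992049, which was also covered over its whole length by H3K27ac in both genotypes. Among all other peaks 41.95% carried a score at the ceiling.

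Domains lay on every chromosome except Y, and 1 lay on an unlocalized contig. Chromosome 1 held the most, 52, and chromosome 21 held 1. Relative to the number of WT H3K4me3 peaks, domains made up 2.42% (1.78 to 3.28) of the peaks of chromosome 6 and 1.00% (0.560 to 1.79) of those of chromosome 16, against 1.74% overall. Few were close together. With gaps of at most 100 kb, 48 domains formed 23 runs, and the longest runs held 3 domains, at chr6:33237886-33403668 and at chrX:39945476-40036838. All 3 domains of the chromosome 6 run held H3K27ac and none H3K27me3 in WT. All 3 of the chromosome X run held both marks in WT. A shorter WT H3K4me3 peak often lay beside a domain. The nearest other WT H3K4me3 peak was within 3 kb for 152 domains (30.4%), against 24.4% of the next 500 (6.0 points more, 0.470 to 11.5) and 16.3% of all others.

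The question asked of these domains was whether their extent and their other marks were the same without ZNF263. Every one of the 500 overlapped a KO H3K4me3 peak by at least 1 bp (100%, lower limit 99.2%), as did all of the next 500. Among all peaks outside the 500, 87.4% did. KO peaks covered 96.1% of the bases of the 500 domains, against 95.8% for the next 500 and 87.8% for all others. No broad domain was absent from the KO list.

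Width was compared as the summed width of all KO peaks that overlap a domain, divided by its WT width. The median ratio was 0.993 (0.988 to 0.999), with quartiles of 0.958 and 1.02, and 429 domains (85.8%) were within 10% of their WT width. In KO, 275 domains were narrower, 223 wider and 2 equal. Since the domains were chosen for being wide in WT, the calculation was mirrored. The 500 widest KO peaks (7588 to 21127 bp) all overlapped a WT peak, and their WT to KO ratio had a median of 0.995 (0.990 to 0.999), with 279 narrower in WT. So in each genotype the set that genotype chose was slightly wider there than in the other genotype, by a similar amount. The ratio for the next 500 had a median of 0.986 (0.978 to 0.994).

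**Figure D1:**
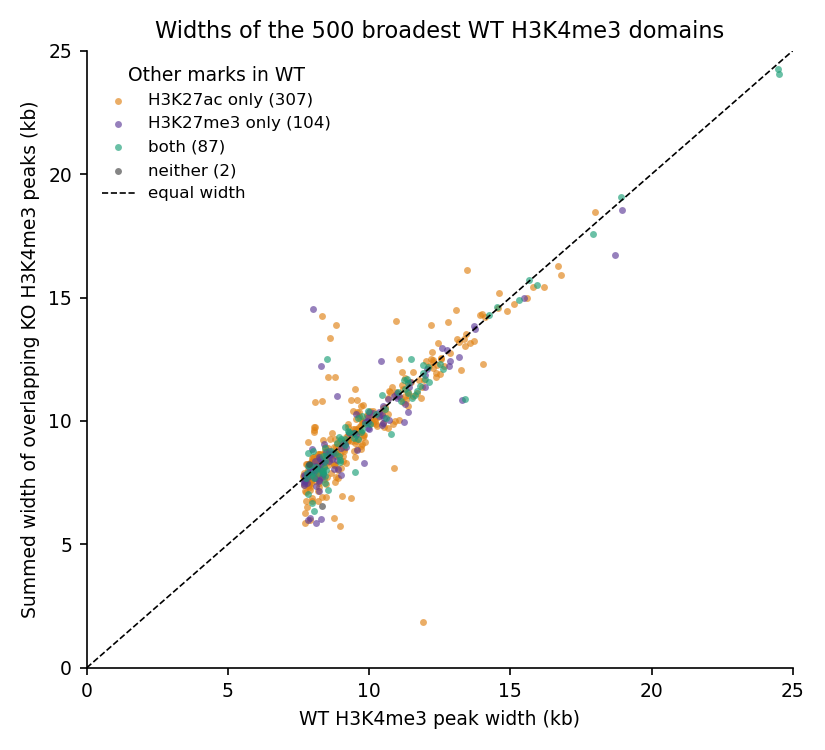
Each point is 1 of the 500 broadest WT H3K4me3 domains, with its WT width (kb, x axis) against the summed width of the KO H3K4me3 peaks that overlap it (kb, y axis), coloured by the other marks it carried in WT. Points follow the line of equal width, with 429 domains within 10% of it. A ratio above 1.25 was found in 11 domains and below 0.8 in 14, of which 1 domain of 11922 bp lies furthest below the line at 1859 bp.

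The order of widths was also alike. Across the 500 domains, WT and KO widths had a Spearman coefficient of 0.869 and a Pearson coefficient of 0.903 (n = 500 regions from 1 library each, a description that shares the peak caller and the region). Of the 500 domains, 410 (82.0%) overlapped one of the 500 widest KO peaks, and 411 of those KO peaks (82.2%) overlapped a domain. For 50 more domains the widest overlapping KO peak was among the following 500 in KO, for 22 among the 1000 after those, and for 18 it ranked lower. The edges of the domains differed between genotypes by a median of 160 bp. Of the 1000 edges, 534 lay further inside the domain in KO than in WT, and 60 (6.0%) differed by more than 1 kb, against 1.61% of edges over all WT H3K4me3 peaks with a KO peak and 4% in the next 500.

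**Figure D2:**
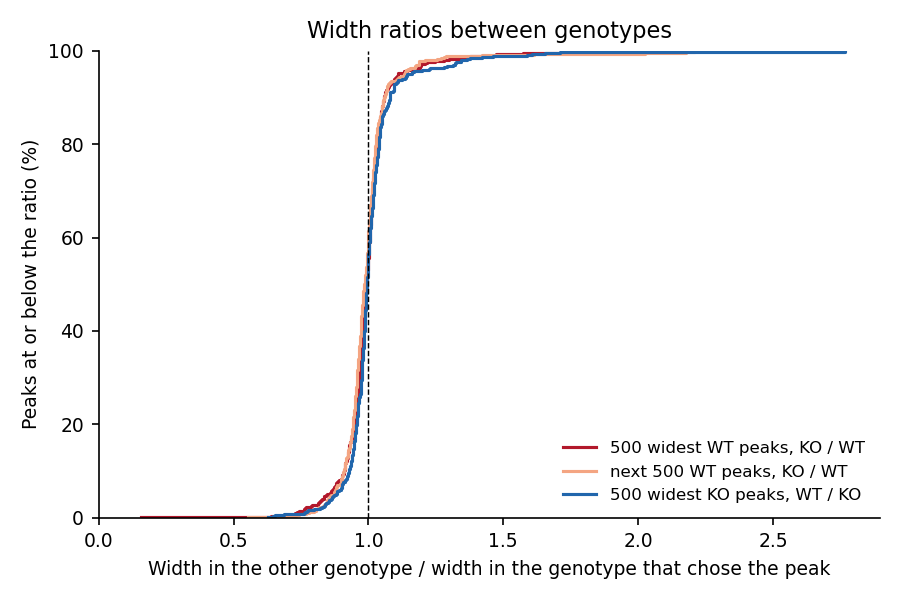
Cumulative share of peaks (%, y axis) at or below a width ratio (x axis), for the 500 widest WT peaks and the next 500 (KO divided by WT) and for the 500 widest KO peaks (WT divided by KO). The 3 curves cross 50% at 0.993, 0.986 and 0.995.

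Domains consisted of several peaks in KO more often than narrower peaks did. A domain was represented by 1 KO peak in 436 cases, by 2 in 58 and by 3 or 4 in 6, so 64 (12.8%) were split, against 5.4% of the next 500 (7.40 points more, 3.87 to 11.02) and 0.921% of all WT H3K4me3 peaks. The gaps between the KO pieces were short, with a median of 278 bp, and 56 of the 71 gaps were under 500 bp. Splitting went both ways. Of the 500 widest KO peaks, 44 (8.80%) were split in WT, with a median gap of 305.5 bp. The widest domains were split most often: 21 of the 100 widest, 25 of the next 200 and 18 of the last 200.

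A ratio below 0.8 was found in 14 domains (2.80%), against 4.93% of all WT H3K4me3 peaks with a KO peak. A ratio above 1.25 was found in 11 domains (2.20%), against 5.18%. These shares were below those of the whole list. In the next 500 they were 1.4% and 2%, and the differences of 1.4 points (−0.444 to 3.38) and 0.2 points (−1.71 to 2.12) include 0. At all 11 of the wider domains a KO peak also overlapped another WT H3K4me3 peak. The nearest other WT H3K4me3 peak to these domains, on either side, lay 45 to 1298 bp away. None of the 14 narrower domains involved such a join.

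The highest ratio was that of the domain ranked 418, chr8:65280222-65288244, which was 8023 bp in WT and part of a single 14541 bp peak in KO (ratio 1.81). It was covered by H3K27me3 over its whole length in both genotypes. The domain ranked 351, chr17:62489980-62498302, had a ratio of 1.71 and 3 KO peaks, and its nearest WT neighbour lay 73 bp away. At the domain ranked 283, chr6:44212517-44221341 (ratio 1.57), the nearest WT neighbour lay 52 bp away. The domains ranked 308, chr1:153932965-153941564 (ratio 1.55), and 355, chrX:82759313-82767620 (ratio 1.47), had their nearest WT neighbours 667 and 1298 bp away. The last of these was H3K27me3-marked, and H3K27me3 covered 52.6% of it in WT and 70.9% in KO.

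One domain stood apart among those that were narrower. The domain ranked 73, chr3:110678834-110690755, was 11922 bp wide in WT with a score at the ceiling, and in KO it held a single peak of 1859 bp with a score of 114 (ratio 0.156). The same domain held 2 WT H3K27ac peaks, of 3187 and 3706 bp, and 1 KO H3K27ac peak of 2204 bp, so that H3K27ac covered 57.3% of it in WT and 18.5% in KO. The H3K27ac peak seen only in WT overlapped the remaining KO H3K4me3 peak. It held no FLAG peak and no H3K27me3 in either genotype. No other domain had a ratio under 0.6, and this domain alone therefore accounts for the far end of the distribution.

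The next lowest ratios were 0.639 at the domain ranked 266, chr4:188915735-188924713, and 0.695 at the domain ranked 295, chr19:1247397-1256143. Both held H3K27ac over nearly the same share of bases in WT and KO (34.5% and 32.9% at the former, 68.7% and 68.9% at the latter). In each, a single edge accounted for the difference, 3127 bp further in at the former and 2677 bp at the latter. The domains ranked 393, chr20:57424019-57432136 (ratio 0.724), and 358, chr10:119299997-119308279 (ratio 0.727), were H3K27me3-marked. At 13 of the 14 narrower domains an edge differed by more than 1 kb. A FLAG peak was held by 12 of the 14 narrower domains and by 5 of the 11 wider ones, against 391 of all 500.

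The domain ranked 393 has a second broad domain nearby, ranked 33, at chr20:57462573-57475982. This pair was chosen for description after its values were seen. The domain ranked 33 was 13410 bp in WT and 2 peaks of 9183 and 1702 bp in KO (ratio 0.812), and it held H3K27ac, H3K27me3 and a FLAG peak of 4454 bp. H3K27ac covered 60.5% of it in WT and 73.0% in KO. Of this run only the domain ranked 393 had a ratio below 0.8, and in the other 22 runs no domain did. Ratios below 1 at both domains were also found in other runs, such as chr12:6444173-6486817 (0.945 and 0.962) and chr17:7113357-7147596 (0.911 and 0.954).

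Next, the domains were described by the marks that the rule did not use. Of the 500 domains, 394 (78.8%, 75.005 to 82.2) overlapped an H3K27ac peak in WT and 381 (76.2%) in KO. H3K27me3 was present in 191 (38.2%, 34.0 to 42.5) in WT and in 180 (36.0%) in KO. In WT, H3K27ac covered 42.1% of the bases of the domains and H3K27me3 28.2%. In KO these shares were 41.3% and 27.01%.

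Because a wider region overlaps more peaks by its size alone, each share was also taken in a window of 1 kb on each side of the midpoint. Over the complete peak, H3K27ac was 36.9 points (33.0 to 40.3) more frequent in domains than in all other WT H3K4me3 peaks, and within the window 19.7 points (15.4 to 23.9). Against the next 500 the difference was −1.40 points (−6.40 to 3.61) over the complete peak and −13.2 points (−18.8 to −7.44) at the midpoint. H3K27ac was therefore less often at the centre of the broadest domains than at the centre of the peaks just below them in width. The window has a fixed size and is a smaller part of a wider peak. By bases, WT H3K27ac covered 42.1% of the domains and 44.2% of the next 500. H3K27me3 was 6.80 points (0.895 to 12.6) more frequent than in the next 500 over the complete peak, and 3.8 points (−1.87 to 9.44) at the midpoint, an interval that includes 0. Against all other peaks, the midpoint difference for H3K27me3 was −1.05 points (−5.02 to 3.19).

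Domains fell into 3 mark classes in WT. H3K27ac without H3K27me3 was found in 307 (61.4%, 57.1 to 65.6), H3K27me3 without H3K27ac in 104 (20.8%, 17.5 to 24.6), and both marks in 87 (17.4%, 14.3 to 21.0). H3K27me3 at an H3K4me3 domain, the bivalent pattern, is found in the last 2 classes. Only 2 domains carried neither, whereas 29.2% of all other peaks did. Those 2, ranked 349 (chr3:50272587-50280920) and 454 (chr17:2234738-2242625), carried neither in KO as well, and each held 1 FLAG peak. Both marks together were found in 4.46% of all other peaks and in 14.2% of the next 500, where the difference of 3.20 points (−1.33 to 7.73) includes 0.

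**Figure D3:**
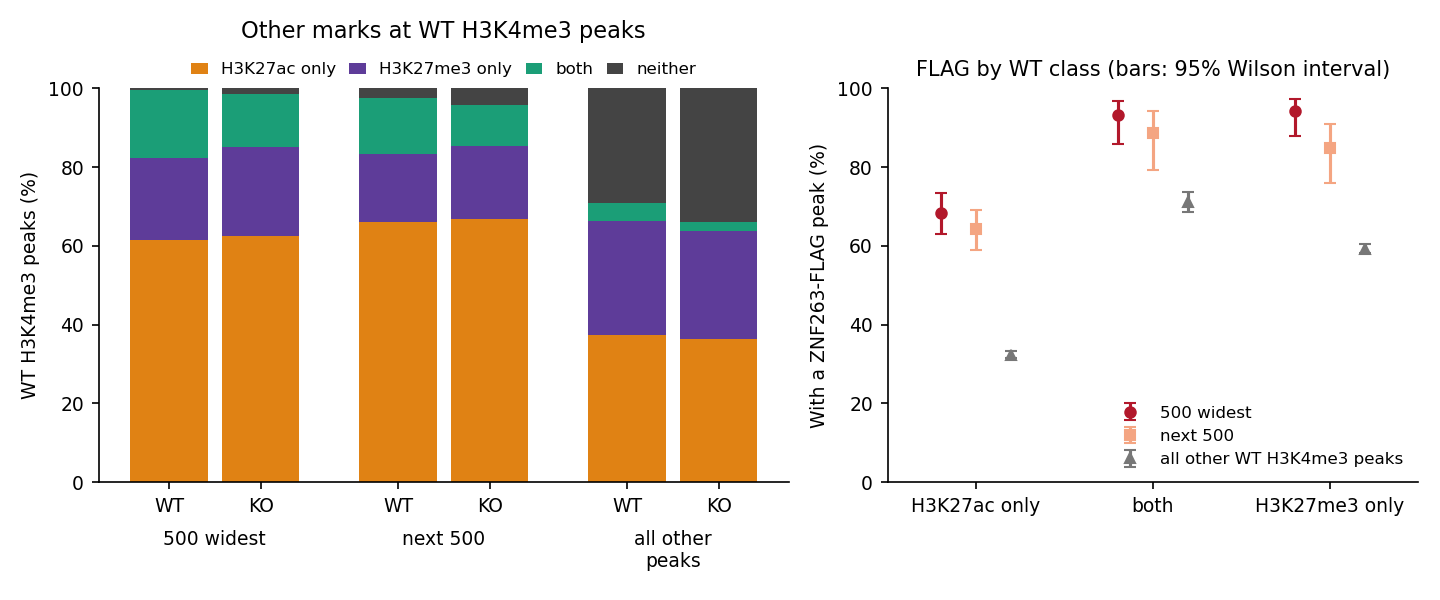
Left, share of WT H3K4me3 peaks (%) in each mark class in WT and in KO, for the 500 widest, the next 500 and all peaks outside the 500. Right, share (%) with a FLAG peak by WT class, with Wilson intervals; H3K27me3 classes stand above the H3K27ac-only class in each width group (94.2% and 93.1% against 68.4% in the 500 widest).

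The 3 classes had different layouts. In the 104 domains with H3K27me3 alone, H3K27me3 covered 95.3% of the bases and reached beyond H3K4me3. H3K27me3 peaks lay over 98.1% of these domains at the midpoint, 82.2% at 5 kb and 45.2% at 8 kb. H3K4me3 peaks lay over 38.9% at 5 kb and 18.8% at 8 kb. Any peak of a list was counted, so peaks beside the domain enter the shares at 5 and 8 kb. In 81 of the 191 H3K27me3-marked domains the mark covered every base. The widest of these was the domain ranked 3, chr11:31824877-31843840, of 18964 bp in WT and 18559 bp in KO. In the 307 domains with H3K27ac alone, H3K27ac covered 58.1% of the bases, lying over 57.3% of domains at the midpoint and over 64.2% at 2 kb. Complete coverage by H3K27ac was rare, in 5 domains in WT, of which the domain ranked 9 was the widest.

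**Figure D4:**
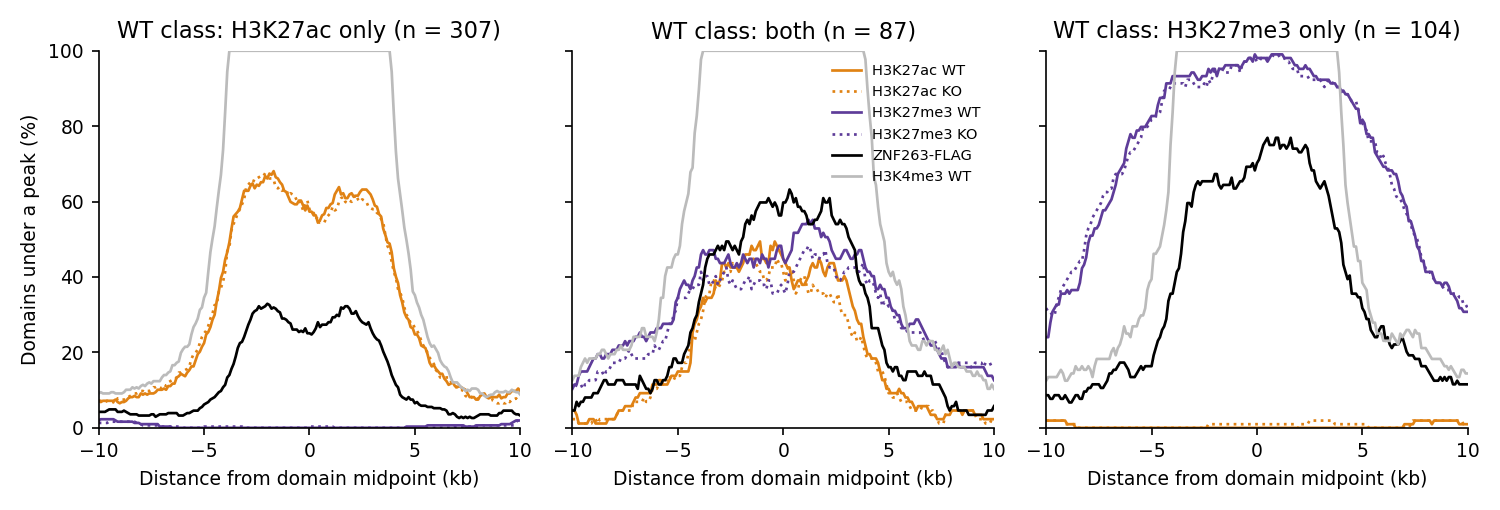
Share of domains (%, y axis) under any peak of each list, peaks beside the domain included, by distance from the domain midpoint (kb, x axis), by WT mark class. In the H3K27me3-only class H3K27me3 extends past H3K4me3 on both sides (45.2% against 18.8% at 8 kb), and in the H3K27ac-only class H3K27ac and FLAG are lower at the midpoint than at 2 kb (57.3% and 64.2%, 25.1% and 31.6%).

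In the 87 domains with both marks, the marks mostly occupied different stretches. H3K27ac alone covered 26.9% of their bases, H3K27me3 alone 36.9%, both together 9.93% and neither 26.3%. In 17 of the 87 the marks shared no base. As a share of the bases under either mark, shared bases made up 13.5%, against 17.7% for the next 500 and 28.1% for all other peaks. The median widths of both-mark regions were 9474, 7016 and 3712.5 bp in the same order, so these shares are not separated from region size. Overlap within a domain comes from different libraries of a cell population, so it does not show that both marks sat on the same chromosomes. The widest domain, chr14:57260554-57285080, belonged to this class: its 24527 bp were 92.5% under H3K27me3, with a gap of 1701 bp near the centre. A 2635 bp H3K27ac peak (10.7% of bases) spanned this gap, with its other 934 bp under H3K27me3. In KO it consisted of 2 H3K4me3 peaks with a summed width of 24041 bp, H3K27me3 over 94.0% and H3K27ac over 7.08%.

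The second widest, chrX:39945476-39969936 (24461 bp in WT, 24260 bp in KO), held H3K27me3 over 47.9% of its bases in WT and 51.8% in KO, with 5 FLAG peaks. The domain ranked 4, chr15:60285086-60304021, had nearly the same H3K4me3 width in both genotypes (ratio 1.01), while both other marks covered less of it in KO: H3K27ac 36.1% in WT and 12.9% in KO, H3K27me3 70.2% and 41.0%. The domain ranked 7, chr2:63270023-63287951, was 92.1% under H3K27me3 in WT and 91.2% in KO. Both marks were found in 26.0% of the 100 widest domains, 15.5% of the 200 that follow and 15.0% of the last 200. The 100 widest stood 10.8 points (2.23 to 20.6) above the other 400, a comparison in which wider regions again have more room for peaks.

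Most domains were in the same mark class in both genotypes, 467 of 500 (93.4%), against 89.4% of the next 500 (4.0 points more, 0.514 to 7.54) and 82.8% of all other peaks. By class, 300 of the 307 H3K27ac-only domains (97.7%), 101 of the 104 H3K27me3-only domains (97.1%) and 64 of the 87 both-mark domains (73.6%) were in the same class in KO. For these classes, in this order, the shares were 95.8%, 93.0% and 62.0% in the next 500. Over all WT H3K4me3 peaks they were 84.1%, 87.3% and 42.3%. The lower share of the both-mark class was therefore not particular to the domains. Of the 33 domains that differed in class, 23 came from the 87 that held both marks in WT. Of these 23, 13 held H3K27ac alone in KO and 10 held H3K27me3 alone.

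H3K27ac was present in WT and absent from the KO list in 16 of 394 domains (4.06%, 2.51 to 6.49), against 17.6% of all WT H3K4me3 peaks with H3K27ac. The reverse was found in 3 of 106 (2.83%, 0.967 to 7.99), against 7.87%. H3K27me3 was present in WT alone in 13 of 191 domains (6.81%, 4.02 to 11.3), against 14.1%, and in KO alone in 2 of 309 (0.647%, 0.178 to 2.33), against 1.62%. The shares of WT-only marks were below those of the whole list. For the next 500 they were 6.23% (4.26 to 9.04) for H3K27ac and 10.2% (6.37 to 15.9) for H3K27me3, which overlap the intervals of the domains. KO H3K27me3 peaks numbered 10375 and WT ones 11906.

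The marks found in WT alone were small and low-scoring parts of their domains. The 16 WT-only H3K27ac cases covered a median of 28.2% of the domain with a median top score of 79.7, against 50.9% and 653 where H3K27ac was in both. The 13 WT-only H3K27me3 cases covered a median of 16.7% with a median top score of 63.6, against 93.9% and 3100 where H3K27me3 was in both. These groups differ in mark class. All 13 H3K27me3 cases were both-mark domains, against 74 of the 178 with H3K27me3 in both genotypes. For H3K27ac the numbers were 10 of 16 and 77 of 378. WT H3K27me3 covered 46.9% of the bases of both-mark domains and 95.3% of H3K27me3-only ones. The comparison was not made within a class. The top score was below the median of the WT list in 13 of the 16 H3K27ac cases (list median 120) and in 12 of the 13 H3K27me3 cases (list median 294). The exception among the latter was the domain ranked 331, chr17:79475324-79483747, which touched the end of an 8957 bp WT H3K27me3 peak with a score of 1702, and the nearest KO H3K27me3 peak lay 298 bp from the domain.

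Among the H3K27me3 cases, the widest was the domain ranked 13, chrX:136643677-136659355. It held 3 WT H3K27me3 peaks of 1357, 1233 and 1135 bp (23.6% of bases, scores 46.2 to 63.6) and none in KO. Its H3K4me3 was 15679 bp in WT and 15706 bp in KO, and its H3K27ac covered 31.4% in WT and 36.3% in KO. Of its 3 FLAG peaks, 2 lay in the part that held H3K27me3 in WT and 1 on the larger H3K27ac peak. The domain ranked 270, chr1:202773272-202782195, had the largest share under WT-only H3K27me3, 44.6%. Chromosome 17 held 4 of the 13 cases, the domain ranked 331 among them. It held 14 of the 191 domains with H3K27me3 in WT. Whether WT-only H3K27me3 was more frequent on this chromosome was not tested.

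Among the H3K27ac cases, the domain ranked 132, chr6:15242514-15253174, had the largest share under WT-only H3K27ac, 63.9% in 2 peaks, with neither H3K27 mark in KO and an H3K4me3 ratio of 0.913. The domain ranked 99, chr18:76736256-76747542, held H3K27ac over 28.6% of its bases in WT and none in KO, with H3K27me3 over 63.7% in WT and 49.9% in KO and an H3K4me3 ratio of 1.00. The domain ranked 474, chr9:128507363-128515170, held H3K27ac alone in WT (33.4% of bases) and H3K27me3 alone in KO (9.87%). It was the only domain with a complete exchange of the 2 marks.

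The 3 domains with H3K27ac in KO alone had all been H3K27me3-only in WT. The share of their bases under KO H3K27ac was 21.7% at the domain ranked 300 (chr7:20832182-20840882), 50.5% at the domain ranked 352 (chr5:139025555-139033877) and 19.8% at the domain ranked 394 (chr3:181441696-181449801). The last lay 4511 bp from another broad domain, ranked 50, chr3:181424638-181437184, which was under H3K27ac over 95.8% of its bases in WT and 95.2% in KO. H3K27me3 in KO alone was seen at the domain ranked 328 (chr9:127526540-127534970, 14.2% of bases) and at the domain ranked 474.

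Where a mark was present in both genotypes or in either, the share of bases under it mostly differed little. For H3K27ac, 57 of 397 domains (14.4%) had more than 10 points less coverage in KO, against 22.2% over all WT H3K4me3 peaks, and 43 (10.8%) had more than 10 points more, against 18.5%. For H3K27me3, 29 of 193 (15.0%) had less, against 20.7%, and 8 (4.15%) had more, against 7.07%. In the next 500 these shares were 16.1% and 12.4% for H3K27ac and 16.8% and 6.21% for H3K27me3. The largest difference for H3K27ac among domains that held it in both was at the domain ranked 326, chr19:42362741-42371199, with 97.4% in WT and 56.8% in KO. For H3K27me3 it was at the domain ranked 168, chr15:70384309-70394273, with 73.0% in WT and 38.8% in KO. The median difference was 0.326 points for H3K27ac and 0 for H3K27me3.

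FLAG peaks were then counted at the domains, to see how often tagged ZNF263 was found there. Of the 500 domains, 391 (78.2%, 74.4 to 81.6) overlapped at least 1 of the 22966 FLAG peaks. A single FLAG peak was found at 284 domains, 2 at 86 and 3 or more at 21, and FLAG peaks covered 36.5% of the bases. The domains ranked 2 and 5 held 5 each. The latter, chr12:113899875-113918572, was 18698 bp in WT and 4 KO H3K4me3 peaks with a summed width of 16745 bp, lay entirely under H3K27me3 in both genotypes, and had 76.5% of its bases under FLAG peaks.

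The share of domains with FLAG was 39.6 points (35.8 to 43.1) higher than in all other WT H3K4me3 peaks over the complete peak and 21.2 points (16.8 to 25.4) higher within the midpoint window. Against the next 500 it was 7.20 points (1.80 to 12.5) higher over the complete peak and 7.20 points (1.22 to 13.1) lower at the midpoint. Within the 500, FLAG was found at 76% of the 100 widest domains, 78.5% of the 200 that follow and 79% of the last 200, and FLAG peaks per 10 kb were 0.95, 1.08 and 1.15.

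FLAG peaks on domains numbered 525, with a median width of 3026 bp and a median score of 173. Those on the next 500 had a median width of 2728 bp and a median score of 200. FLAG peaks off WT H3K4me3 had medians of 1630 bp and 68.9. The FLAG peaks of broad domains were thus wider and higher in score than FLAG peaks away from H3K4me3, with a lower median score than those of the next 500.

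FLAG differed between mark classes. H3K27me3-only domains held a FLAG peak in 98 of 104 cases (94.2%, 88.0 to 97.3) and both-mark domains in 81 of 87 (93.1%, 85.8 to 96.8), whereas H3K27ac-only domains did so in 210 of 307 (68.4%, 63.0 to 73.4). The difference between H3K27me3-only and H3K27ac-only domains was 25.8 points (17.9 to 32.1), and between both-mark and H3K27ac-only domains 24.7 points (15.8 to 31.2). Median widths of the 3 classes were 8939, 9474 and 9094 bp, in the order H3K27me3-only, both-mark and H3K27ac-only. The same order of FLAG was found per base, with 62.7%, 47.8% and 24.1% of bases under FLAG, and 1.57, 1.31 and 0.827 FLAG peaks per 10 kb. At the midpoint the shares were 88.5%, 73.6% and 45.6%.

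This difference between classes was not particular to the broadest domains. In the next 500 it was 20.6 points (10.3 to 28.7) between the H3K27me3-only and H3K27ac-only classes, with shares of 84.9% and 64.2%. Among all other peaks the shares were 59.3% and 32.4%. Several FLAG peaks in a single domain were also most frequent with H3K27me3 alone, in 46 of 104 domains (44.2%), against 31 of 87 with both marks and 30 of 307 with H3K27ac alone.

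The 109 domains without FLAG were mostly H3K27ac domains, 97 of them with H3K27ac alone. The widest was the domain ranked 8, chr5:124070480-124087281, of 16802 bp, with H3K27ac over 55.2% of it in WT and 48.0% in KO. The nearest FLAG peak to these 109 lay a median of 52.1 kb away, and for 91 of them it was more than 10 kb away. They were not near misses of the overlap rule, since a single one had a FLAG peak within 1 kb.

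Median H3K4me3 width ratios were close with and without FLAG, at 0.992 for the 391 domains with FLAG and 0.999 for the 109 without. In each group 12.8% were split. In the H3K27ac-only class 20 of 210 with FLAG and 14 of 97 without were split. The numbers were 23 of 98 and 0 of 6 for H3K27me3-only domains, and 6 of 81 and 0 of 6 for both-mark domains. The FLAG-negative domains of these last classes are too few for a comparison. In the next 500, H3K27me3-only peaks were split in 9 of 73 cases with FLAG and 3 of 13 without. By number of FLAG peaks the median ratio was 0.999 at 0, 0.992 at 1, 0.989 at 2 and 0.982 at 3. Over all WT H3K4me3 peaks it was 0.960, 0.989, 0.994 and 1.00. H3K27ac in WT alone was found in 15 of 291 FLAG-positive domains and 1 of 103 FLAG-negative ones. Over all WT H3K4me3 peaks the numbers were 903 of 4608 and 1246 of 7595. H3K27me3 in WT alone was found in 13 of 179 and 0 of 12, too few FLAG-negative domains for a comparison. Viewed from the marks, 15 of the 16 domains with WT-only H3K27ac held FLAG (93.8%, 71.7 to 98.9), against 276 of 378 with H3K27ac in both (73.0%, 68.3 to 77.2). Among all other WT H3K4me3 peaks these shares were 41.6% and 35.4%. Of the 16 domains, 10 were both-mark domains, a class in which 93.1% hold FLAG. Within the H3K27ac-only class, WT-only H3K27ac was found in 5 of 210 domains with FLAG and 1 of 97 without. In the next 500 the numbers for this class were 5 of 212 and 5 of 118. Over all WT H3K4me3 peaks they were 541 of 3632 and 1116 of 7228. Whether WT-only H3K27ac goes with FLAG was not tested.

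The widest peaks of the other lists lay on domains more often than those lists did as a whole. Of the 500 widest WT H3K27ac peaks, 126 (25.2%) lay on a domain, against 3.06% of all WT H3K27ac peaks. For WT H3K27me3 the numbers were 75 (15%) and 1.92%, and for FLAG 71 (14.2%) and 2.29%. Both sides of each comparison favour wide regions, which overlap more by their size. The 536 WT H3K27ac peaks on domains had a median width of 3460 bp, against 2064 bp elsewhere, and made up 5.09% of all bases under WT H3K27ac. The 229 WT H3K27me3 peaks on domains had a median width of 7482 bp, against 3051 bp elsewhere, and held 2.66% of the bases of that list.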

How the data were processed

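The peak lists used were 7, for H3K4me3, H3K27ac and H3K27me3 in WT and KO cells and for FLAG. Each histone list has 1 library, and the FLAG list was treated as that of the FLAG library. They came from a series of 13 samples in which groups were taken from the sample titles. Per the submitters' processing notes, Bowtie2, Picard and hg19 were used, with no version or role given. The deposited lists give chromosome, start, end, a peak name that begins with MACS, and a score. This score was assigned by the authors' peak caller on a scale that the labels do not explain, and it was compared only within a list. The lowest scores were 40 in the H3K27 lists and 50 in the others, and 186 of 23152 FLAG peak numbers are absent from the list. Peak width and presence move with sequencing depth and with the caller's threshold, and the depth behind each list is unknown.

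The 500 domains and the tests were chosen with earlier results of these data known. Overlap was at least 1 bp. Width in KO was the summed width of all overlapping peaks. A ratio below 0.8 or above 1.25 was called narrower or wider. Named domains were the 10 widest, the 5 lowest and 5 highest ratios, the widest of each mark class and of each class difference, those with most FLAG peaks and largest mark coverage, and those at the threshold, of which a selection is printed. Overlaps were tested on simulated peaks for 500 regions, where 0 differed from bedtools 2.31.1. Other tools were python 3.11.15, numpy 2.4.6, pandas 2.3.3, scipy 1.17.1 and matplotlib 3.10.9. Gene names, promoters and DNA sequence were not analysed here, because the tables at hand belong to another build.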

Additional observations from a re-analysis of the deposited data

How the results depend on the processing

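The overlap of all domains with KO H3K4me3, the median width ratio and the shares with H3K27ac, H3K27me3 and FLAG were recomputed under other settings, which gave 37 values, and 25 of these stayed within the main interval. Merging WT peaks up to 3 kb apart before ranking gave a width ratio of 0.829 against unmerged KO peaks, and shares of 63.8% with H3K27ac, 57.4% with H3K27me3 and 82.2% with FLAG. With both lists merged the ratio was 0.993, and 236 of the 500 domains lay in the 500 widest merged regions, so which regions count as broadest, and their marks, depends on how the caller split peaks. The upper 50% by score of the other list gave 96.8% with H3K4me3 in KO, 70.8% with H3K27ac, 31.8% with H3K27me3 and 67.2% with FLAG. The midpoint window gave 61.6%, 31.8% and 59.6% for these last 3. The single KO peak with the largest overlap gave a ratio of 0.987. No paired analysis was possible because each genotype has 1 library per mark. The number of domains, at 250 or 1000, autosomes alone and an overlap of 50% of the smaller peak moved none of these values outside the main interval.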
